A study of Homo sapiens with 4 samples.

Results

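Fucose is added to glycans and proteins by fucosyltransferases, which draw on the activated sugar GDP-fucose. The genes described here are 8 fucosyltransferases (FUT1, FUT2, FUT4, FUT8, FUT10, FUT11, POFUT1 and POFUT2), the GDP-fucose synthesis enzyme GMDS and the GDP-fucose transporter SLC35C1. They were taken by symbol, and all 10 were found among the 16376 genes of the table. The group was selected on measured values, the FPKM of the same 4 libraries, in which FUT11 was already known to be lower with ketotifen. RNA was measured by sequencing of polyadenylated transcripts in LASCPC-01 cells, a human neuroendocrine prostate cancer line derived from prostate epithelium transformed with N-Myc and activated AKT1, and labelled WT. A pair of libraries came from cells treated with ketotifen, an H1 antihistamine, and a pair from cells treated with the vehicle PBS, all labelled day 3. The drug dose is not given in the sources used here. The study asks whether ketotifen could serve as a therapy for neuroendocrine prostate cancer.

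Most GDP-fucose is made in the cytosol from GDP-mannose, by GMDS and then GFUS. A salvage route, through FCSK and FPGT, reuses free fucose. SLC35C1 carries GDP-fucose into the Golgi, where FUT1 and FUT2 build the H antigen, FUT4 builds Lewis-type structures and FUT8 adds the core fucose of N-glycans. POFUT1 and POFUT2 work in the endoplasmic reticulum on folded EGF-like repeats, as in Notch receptors, and on thrombospondin repeats. FUT10 and FUT11 have been described as O-fucosyltransferases of EMI domains, a motif of matrix proteins such as the emilins.

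FUT11 was lower with ketotifen, and the other members were not called different. FUT11 had 11.3 FPKM (fragment counts divided by gene length and by sequencing depth) in each ketotifen library, against 16.4 FPKM in PBS library A and 15.8 FPKM in PBS library B. The ketotifen libraries were nearly equal and both lay below the PBS libraries, with no overlap, as was found in 31.2% of all tested genes. The means were 11.3 ± 0.0349 FPKM with ketotifen and 16.1 ± 0.411 FPKM with PBS (SD, n = 2 each), so the ketotifen level was 29.7% lower. On the log2(FPKM + 1) scale the change, ketotifen minus PBS, was -0.47 ± 0.06 (SE) with a 95% interval of -0.61 to -0.34 (limma adjusted p = 0.0426). Behind these levels stood at least 976 and 894 recovered reads in ketotifen libraries A and B, against at least 1264 and 1289 in PBS libraries A and B. Reads were recovered only up to a common factor per gene, so these are the smallest numbers that fit. In bulk RNA, less transcript per cell and fewer cells that carry it cannot be told apart.

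Of the 8 members that reached the filter of a mean of 1 FPKM, 1 was called lower and 0 higher at an adjusted p under 0.05, where 0.113% of all 10586 tested genes were called lower and 0.00945% higher. At an unadjusted p under 0.05, 1 of the 8 members passed, against 20.4% of all tested genes. In limma's voom on the recovered reads, FUT11 was again the 1 member called (log2 change -0.51, adjusted p = 0.00243), with 3.56% of tested genes called lower and 3.41% higher. Since this same comparison was used to choose the group, the counts describe it and support nothing. FUT2 and FUT4 lay under the filter and were not tested in these fits.

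The FUT11 call was close to the threshold. It was lost with no filter on low values (limma adjusted p = 0.318), after median ratio scaling (adjusted p = 0.0699) or quantile normalization (adjusted p = 0.0786), without limma's intensity trend (adjusted p = 0.103), and without ketotifen library A (adjusted p = 0.0761) or B (adjusted p = 0.116). The size of the change moved little over these settings, as the plot of FUT11 under each setting shows.

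**Figure D1:**
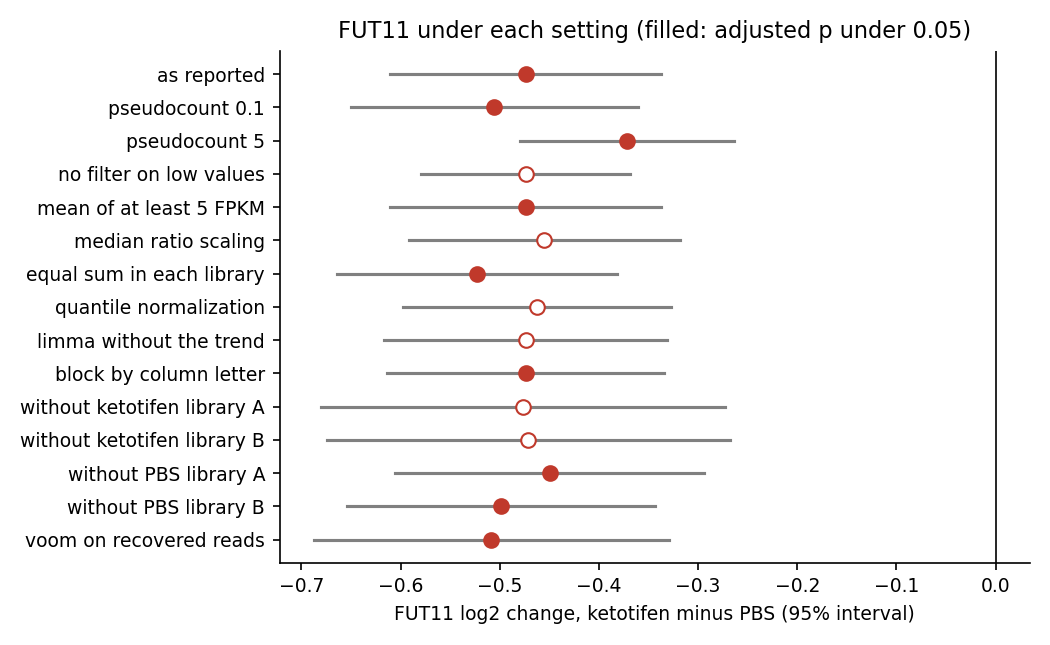
FUT11 log2 change, ketotifen minus PBS, under the reported setting and 14 alternatives. Points are estimates and lines 95% intervals; filled points had an adjusted p under 0.05. Estimates lie between -0.52 and -0.37, and the largest adjusted p is 0.318 with no filter.

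FUT10, the closest relative of FUT11 among the 10 members, had 3.01 and 3.20 FPKM in ketotifen libraries A and B, against 3.22 and 3.12 FPKM in PBS libraries A and B. Its groups overlapped, and its log2 change was -0.02 with a 95% interval of -0.20 to 0.16 (limma adjusted p = 0.893). The ratio of FUT11 to FUT10 within a library, which no scaling between libraries can alter, was 3.64 ± 0.170 with ketotifen and 5.07 ± 0.00887 with PBS (SD, n = 2 each). The ratio was lower in both ketotifen libraries than in either PBS library, a difference of -0.48 on the log2 scale. An exact two-sided permutation test on 2 against 2 libraries cannot go below p = 0.333, the value it gave here. Transcripts of the EMI domain genes that were looked at were scarce, and other genes with this domain were not looked at. All 7 such genes of a list written after the data were seen (EMILIN1, EMILIN2, EMILIN3, MMRN1, MMRN2, EMID1 and COL26A1) lay under 1 FPKM in every library. EMILIN1 was the highest of them, with 0.280 and 0.259 FPKM in ketotifen libraries A and B, against 0.305 and 0.407 FPKM in PBS libraries A and B.

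FUT11 lies on the forward strand of chromosome 10 (73772291 to 73780251, GRCh38, GENCODE 29), and none of its 6 tested protein-coding neighbours within 100 kb was called by limma or voom, with 0 at an unadjusted p under 0.05. SEC24C, a COPII coat subunit that ends 130 bases from FUT11, had a log2 change of -0.03 ± 0.05 (SE; limma adjusted p = 0.813). ZSWIM8, 5331 bases away and a component of a ubiquitin ligase, had 0.004 ± 0.06 (adjusted p = 0.976). CHCHD1, a mitochondrial ribosomal protein gene that begins 1796 bases from the end of FUT11, had the opposite sign, at 0.21 ± 0.10 (adjusted p = 0.258). The annotation also places AC022400.8, an unclassified transcript, on the opposite strand over 572 exonic bases of FUT11. It has no row in the table. Whether reads were counted by strand is not stated in the sources used, so its reads cannot be told apart from those of FUT11. Other members also share exonic bases with annotated genes. FUT8 shares 824 with FUT8-AS1 and POFUT2 shares 310 with LINC00334, both on the opposite strand and without a row. FUT10 shares 37 with TTI2 on the same strand.

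With ketotifen the order of the most abundant members differed from that with PBS. In the PBS libraries FUT11 had the highest FPKM of the 10 genes. In both ketotifen libraries SLC35C1 stood above it, and POFUT1 overlapped it. Over all 4 libraries the means ran from FUT11 through SLC35C1, POFUT1, GMDS, FUT1, FUT10, POFUT2, FUT8 and FUT2 down to FUT4. The ranges of FUT11 and SLC35C1, of SLC35C1 and POFUT1, and of FUT10 and POFUT2 overlapped, and all other neighbours in this order had separate ranges. The gap was widest between FUT8 and FUT2, at 4.66 times.

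**Figure D2:**
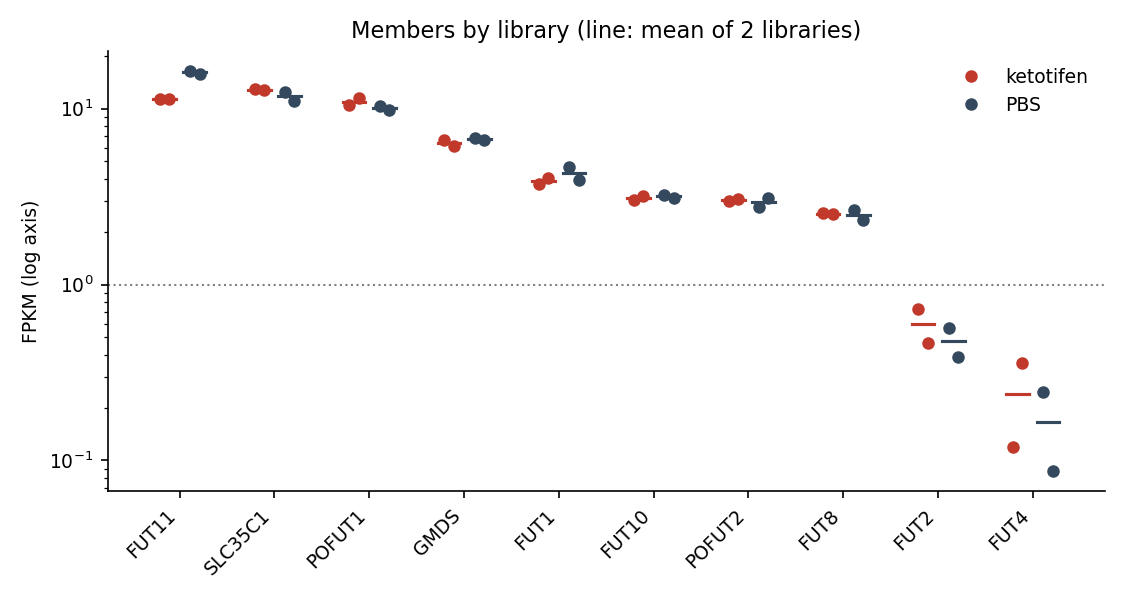
FPKM (log axis) of the 10 members in each library, ketotifen left of PBS; points are libraries, short lines the means of 2 libraries, and the dotted line the filter of 1 FPKM. FUT11 is the member whose ketotifen points (11.3 FPKM) lie clearly under its PBS points (15.8 and 16.4 FPKM).

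FUT11 and POFUT1 made up most of the summed FPKM of the 8 member fucosyltransferases. FUT11 accounted for 32.5% and 31.0% of this sum in ketotifen libraries A and B, against 40.1% and 41.0% in PBS libraries A and B. POFUT1 accounted for 29.9% and 31.5% in ketotifen libraries A and B, against 25.4% in each PBS library. The 7 fucosyltransferases other than FUT11 summed to 24.3 ± 1.10 FPKM with ketotifen and 23.6 ± 1.19 FPKM with PBS (SD, n = 2 each), within the spread of the libraries.

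**Figure D3:**
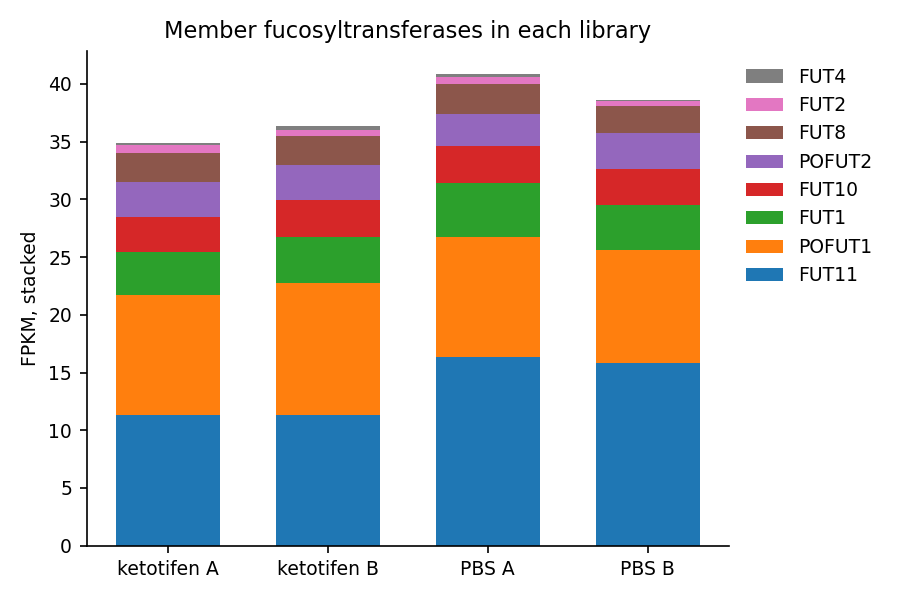
FPKM of the 8 member fucosyltransferases stacked in each library. The total is 34.8 and 36.3 FPKM in ketotifen libraries A and B, against 40.8 and 38.6 FPKM in PBS libraries A and B; the FUT11 segment at the base is the one that is visibly shorter with ketotifen.

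Of the member enzymes of the H and Lewis antigens, FUT1 was called by neither limma nor voom, and FUT2 and FUT4 lay under the filter. FUT1, which makes the H antigen, had 3.71 and 4.01 FPKM in ketotifen libraries A and B, against 4.66 and 3.93 FPKM in PBS libraries A and B. Its groups overlapped because PBS library B lay between the ketotifen libraries (log2 change -0.12, 95% interval -0.33 to 0.09, limma adjusted p = 0.476). FUT2, the secretor enzyme, had 0.728 and 0.467 FPKM in ketotifen libraries A and B, against 0.568 and 0.389 FPKM in PBS libraries A and B. These values came from at least 83, 49, 58 and 42 reads in that order. FUT4, a Lewis x synthase, had 0.119 and 0.357 FPKM in ketotifen libraries A and B, against 0.244 and 0.0867 FPKM in PBS libraries A and B. With at least 13, 36, 24 and 9 reads, FUT4 differed more between libraries of one group than between the groups. GENCODE 29 also places exons of PIWIL4 over part of FUT4, and PIWIL4 has no row in the table.

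Of the Lewis fucosyltransferases that are not members, FUT3 was the only one to reach the filter. FUT3 had 1.73 and 1.52 FPKM in ketotifen libraries A and B, against 2.03 and 2.32 FPKM in PBS libraries A and B, with no overlap but no call (log2 change -0.28 ± 0.09 SE, limma adjusted p = 0.174). FUT3, FUT5 and FUT6 are closely related in sequence, so the split of their reads is uncertain. FUT5, FUT6, FUT7 and FUT9 stayed under 0.2 FPKM in every library. Among the enzymes that build or sialylate the acceptor chains of Lewis and H antigens, together with these fucosyltransferases, limma called 0 of 12 tested genes. Of the 12, 4 had a limma unadjusted p under 0.05, against 20.4% of all tested genes. The same share stands beside the counts of the lists below. The median change was -0.06, against -0.02 over all tested genes. Of all genes in the voom fit, 3.56% were called lower and 3.41% higher. Voom called 1 of the 12 lower, B3GALT5, which makes type 1 chains, with 5.01 ± 0.0320 FPKM under ketotifen and 5.91 ± 0.0710 FPKM under PBS (SD, n = 2 each; voom adjusted p = 0.0326, limma adjusted p = 0.174). ST3GAL4, a sialyltransferase of sialyl Lewis x, had 6.86 ± 0.0466 and 5.92 ± 0.319 FPKM in ketotifen and PBS libraries (limma adjusted p = 0.204). B3GNT2, which extends lactosamine chains, had 10.7 ± 0.20 and 12.002 ± 0.376 FPKM in ketotifen and PBS libraries (limma adjusted p = 0.212).

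FUT8, the core fucosyltransferase, had 2.53 and 2.51 FPKM in ketotifen libraries A and B, against 2.65 and 2.33 FPKM in PBS libraries A and B. The ketotifen values lay between the PBS values, and the log2 change was 0.02 with a 95% interval of -0.18 to 0.21 (limma adjusted p = 0.935), a sign that turned when each library was rescaled to an equal sum. The enzymes that trim and branch the N-glycans on which FUT8 acts were measured in 11 genes. None of the 11 was called by limma or voom, 0 had an unadjusted p under 0.05, 7 had a positive and 4 a negative change, and their median change was 0.008. The smallest p-values belonged to MAN1B1 and MGAT2, with ketotifen higher, and to MGAT5, with ketotifen lower. MGAT2, which starts the second antenna, had 16.3 ± 0.433 FPKM with ketotifen and 14.8 ± 0.443 FPKM with PBS (SD, n = 2 each; limma adjusted p = 0.276). MGAT5, which adds the branch linked to metastasis in other tumours, had 31.8 ± 0.72 FPKM with ketotifen and 34.2 ± 0.682 FPKM with PBS (adjusted p = 0.312).

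POFUT1, the O-fucosyltransferase of Notch receptors and ligands, had 10.4 and 11.5 FPKM in ketotifen libraries A and B, against 10.4 and 9.80 FPKM in PBS libraries A and B. Ketotifen library A lay barely above PBS library A, and the log2 change of 0.11 had a 95% interval of -0.06 to 0.27 (limma adjusted p = 0.425). POFUT2, which fucosylates thrombospondin repeats, had 2.998 and 3.07 FPKM in ketotifen libraries A and B, against 2.75 and 3.12 FPKM in PBS libraries A and B. Both ketotifen values fell inside the PBS range, and the log2 change was 0.04 with a 95% interval of -0.16 to 0.23 (limma adjusted p = 0.828), a sign that turned with rescaling to an equal sum.

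Transcripts of the POFUT1 acceptors, mostly Notch receptors and ligands, ranged widely in level. Of 11 acceptor genes in the table, 3 (NOTCH3, NOTCH4 and PLAU) lay under the filter. Of the 8 tested, limma called 0 and 2 had an unadjusted p under 0.05, with a median change of 0.002. Voom called 1 higher, JAG2, a Notch ligand, and 1 lower, NOTCH2, a Notch receptor. JAG2 had 138 ± 2.07 FPKM with ketotifen and 122 ± 2.85 FPKM with PBS (SD, n = 2 each; limma adjusted p = 0.140, voom adjusted p = 0.0177), and NOTCH2 had 3.79 ± 0.095 and 4.59 ± 0.314 FPKM in ketotifen and PBS libraries (limma adjusted p = 0.184, voom adjusted p = 0.0377). DLL3, an inhibitory ligand and a surface marker of neuroendocrine tumours, was the acceptor gene with the highest FPKM, with 204 ± 2.51 FPKM under ketotifen and 188 ± 15.0 FPKM under PBS (limma adjusted p = 0.339). The Fringe enzymes, which extend O-fucose on Notch, were led by MFNG and LFNG. MFNG had 121 ± 6.54 FPKM with ketotifen and 114 ± 9.32 FPKM with PBS, and LFNG had 60.7 ± 1.58 and 56.3 ± 8.50 FPKM in ketotifen and PBS libraries. None of 4 tested genes of O-fucose elongation was called by limma or voom, and 0 had an unadjusted p under 0.05.

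Most genes of thrombospondin repeat proteins, the acceptors of POFUT2, had few transcripts. Of 43 in the table, 35 lay under the filter, and of the 8 tested limma called 0 (median change -0.06), 2 had an unadjusted p under 0.05 and voom called 1 lower, ADAMTS17, a secreted protease. The smallest limma p in this list was that of UNC5B, a netrin receptor, with 3.47 ± 0.0518 FPKM under ketotifen and 4.44 ± 0.439 FPKM under PBS (SD, n = 2 each; limma adjusted p = 0.148). Of 4 tested transferases that add O-glucose or its xylose extensions to EGF repeats, 0 were called by limma or voom and 1 had an unadjusted p under 0.05. POGLUT2, an O-glucosyltransferase, had 6.07 ± 0.363 FPKM with ketotifen and 4.57 ± 0.0124 FPKM with PBS (log2 change 0.34 ± 0.07 SE, limma adjusted p = 0.102, voom adjusted p = 0.177).

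Supply of GDP-fucose was covered by 6 tested genes, and 0 of them were called by limma or voom, with 1 at an unadjusted p under 0.05 and a median change of 0.05. GMDS, the dehydratase of the synthesis route, had 6.65 and 6.14 FPKM in ketotifen libraries A and B, against 6.79 and 6.62 FPKM in PBS libraries A and B. Its groups overlapped, and the log2 change was -0.06 with a 95% interval of -0.22 to 0.10 (limma adjusted p = 0.650). SLC35C1, the Golgi GDP-fucose transporter, had 12.9 and 12.7 FPKM in ketotifen libraries A and B, against 12.4 and 11.1 FPKM in PBS libraries A and B. The ketotifen libraries lay above both PBS libraries, but the log2 change of 0.11 (95% interval -0.05 to 0.28, limma adjusted p = 0.397) was not larger than the PBS spread: PBS library A was 1.12 times PBS library B.

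GFUS, which completes the synthesis route, was the most abundant supply gene, with 50.2 and 50.0 FPKM in ketotifen libraries A and B, against 46.2 and 45.5 FPKM in PBS libraries A and B. The groups did not overlap, and limma made no call (log2 change 0.13 ± 0.05 SE, adjusted p = 0.221). The salvage kinase FCSK had 6.67 ± 0.134 FPKM with ketotifen and 6.20 ± 0.125 FPKM with PBS (SD, n = 2 each; limma adjusted p = 0.461). Groups that do not overlap were found in 3 of the 8 tested members (FUT11 lower, POFUT1 and SLC35C1 higher) and in 54.4% of all tested genes, with ketotifen lower in 31.2% and higher in 23.2%. Upstream, 0 of 8 tested genes of GDP-mannose supply were called by limma or voom (2 at an unadjusted p under 0.05, median change -0.05), and the largest change was in the phosphomannomutase PMM1, with 6.80 ± 0.857 FPKM under ketotifen and 5.27 ± 0.277 FPKM under PBS (log2 change 0.31 ± 0.09 SE, limma adjusted p = 0.147). On the breakdown side the lysosomal fucosidase FUCA1 was the 1 tested gene, with 5.16 ± 0.478 FPKM under ketotifen and 5.40 ± 0.488 FPKM under PBS (limma adjusted p = 0.753).

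**Figure D4:**
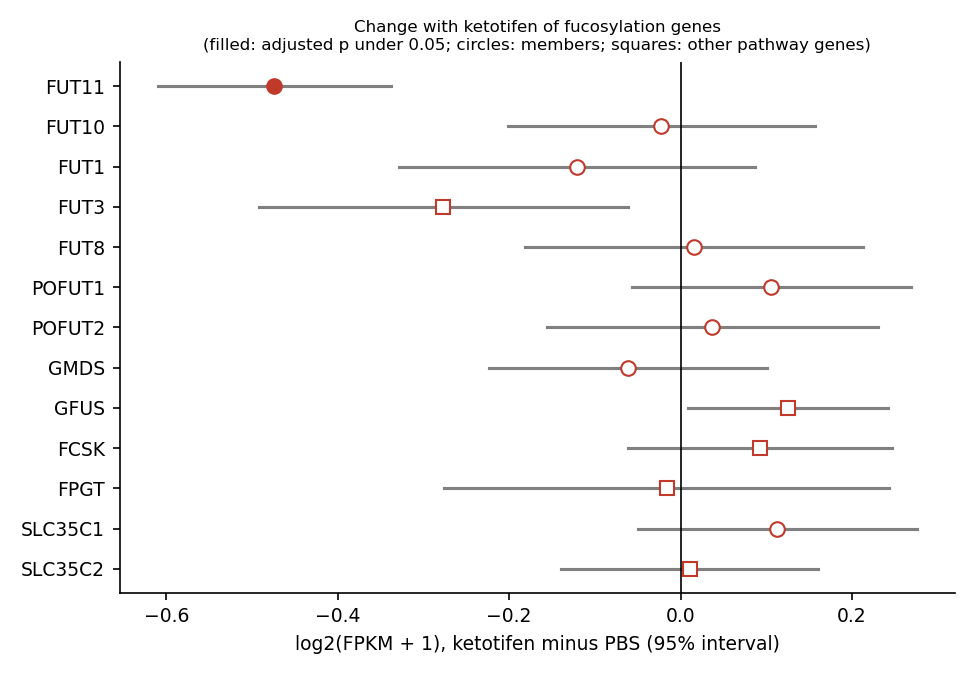
Log2 change, ketotifen minus PBS, on the log2(FPKM + 1) scale for the 8 tested members (circles) and for FUT3, GFUS, FCSK, FPGT and SLC35C2 (squares), with 95% intervals. FUT11, at -0.47, is the filled point, with an adjusted p under 0.05; the intervals of all others but GFUS and FUT3 include 0.

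The profile of FUT11 over the 4 libraries was most like that of P4HA1, a collagen prolyl hydroxylase subunit. Likeness was the Euclidean distance between log2(FPKM + 1) profiles, each centred on its own mean, over 4 libraries that share the ketotifen and PBS contrast, and is a description only. The distance was 0.0394 for P4HA1, and 0.0637 for HID1, 0.0694 for RTN4RL2, 0.0801 for HES7 and 0.0846 for SYT7, next in order. P4HA1 had 14.1 and 13.7 FPKM in ketotifen libraries A and B, against 19.5 and 19.3 FPKM in PBS libraries A and B, a level close to that of FUT11. It lies on chromosome 10 as well, 675316 bases from FUT11. The other 4 had means between 1.12 and 2.04 FPKM, where the added 1 shrinks changes on this scale. On the FPKM scale HID1, RTN4RL2, HES7 and SYT7 were 42.3%, 35.7%, 36.3% and 43.6% lower with ketotifen, against 29.7% for FUT11. HES7 is a transcriptional repressor of the segmentation clock, SYT7 a calcium sensor of exocytosis and RTN4RL2 a Nogo receptor homologue.

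FUT11 and P4HA1 are both known as genes induced in low oxygen, and a list of such genes, drawn up with earlier results of these data known and without FUT11, was set beside FUT11. Of its 25 tested genes limma called 6 lower (ALDOC, BHLHE40, BNIP3, NDRG1, NDUFA4L2 and P4HA1) and 0 higher, and the median change was -0.35, against -0.02 over all tested genes. Limma called 0.113% of all tested genes lower. Voom called 17 of the 25 lower and 0 higher, against 3.56% of its tested genes lower and 3.41% higher. The changes in this list ran from -1.08 to 0.05, and 8 of the 25 genes had a larger fall than FUT11. Since results of these data were known when the list was drawn up, its counts are a description and support nothing. KDM3A, a histone demethylase, had 7.59 ± 0.113 FPKM with ketotifen and 9.84 ± 0.215 FPKM with PBS (SD, n = 2 each; limma adjusted p = 0.0968, voom adjusted p = 0.00648). EGLN1, an oxygen-sensing prolyl hydroxylase, had 8.78 ± 0.243 and 11.1 ± 0.0358 FPKM in ketotifen and PBS libraries (limma adjusted p = 0.1001, voom adjusted p = 0.0129). EGLN3, a related hydroxylase, had 16.7 ± 0.945 and 16.1 ± 2.19 FPKM in ketotifen and PBS libraries (limma adjusted p = 0.765, voom adjusted p = 0.718).

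**Figure D5:**
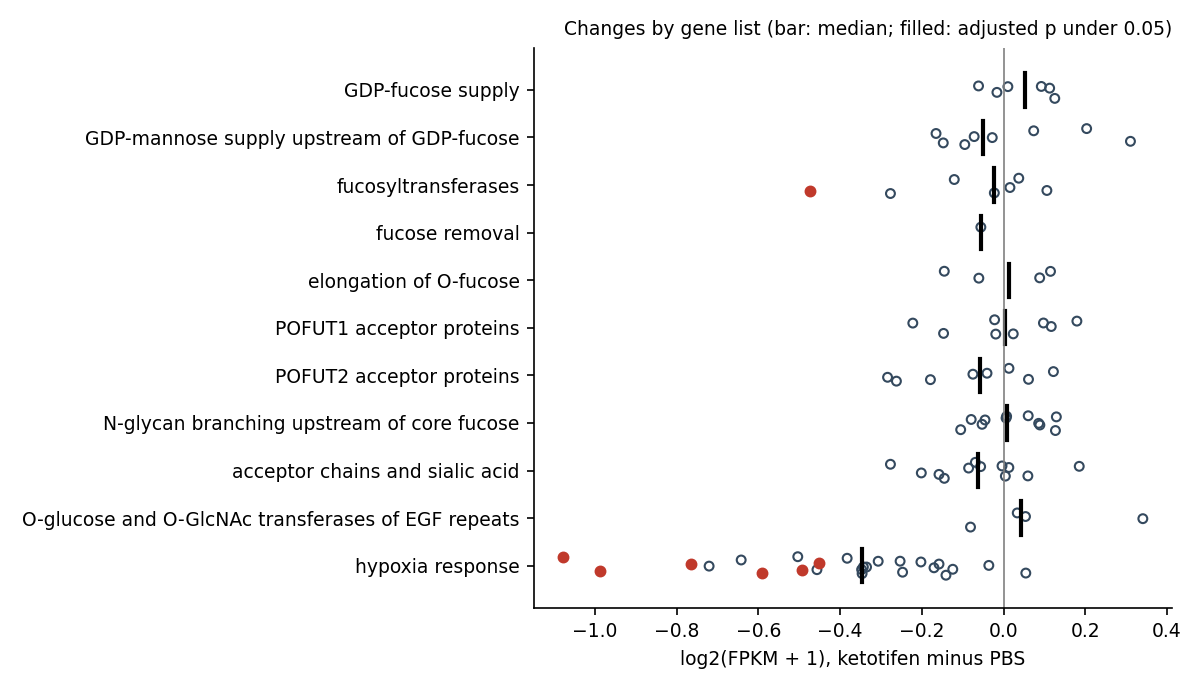
Log2 change, ketotifen minus PBS, of the tested genes of each list; each point is a gene, the bar is the list's median, and filled points had a limma adjusted p under 0.05. FUT11 is the 1 filled point outside the hypoxia list, whose median is -0.35, while the medians of the other lists lie between -0.06 and 0.05.

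The libraries were of similar depth, with 28074513 to 31271219 recovered reads each at the smallest numbers that fit. Over tested genes the ketotifen libraries correlated at r = 0.998 on the log2 scale and the PBS libraries at r = 0.996, and PBS library B was the farther of the PBS libraries from both ketotifen libraries (r = 0.993 with A and 0.994 with B). PBS library A correlated with each ketotifen library at r = 0.996, about as closely as with PBS library B. PBS library B was lower than PBS library A in 7 of the 8 tested members, and the share among all tested genes was not counted. Without PBS library B the log2 change of FUT11 was -0.50, of SLC35C1 0.04 and of POFUT1 0.07; without PBS library A these were -0.45, 0.19 and 0.14. The neuroendocrine markers INSM1, NCAM1 and UCHL1 exceeded 1 FPKM in every library, while the classic markers SYP, CHGA and CHGB stayed under 1 FPKM. Summed endothelial markers reached 0.22 FPKM at most, fibroblast markers 2.16 to 3.14 FPKM, mostly COL1A1, and immune markers 2.81 to 3.99 FPKM, mostly CD68, with PTPRC at or near 0.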

How the data were processed

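Polyadenylated RNA of 2 ketotifen and 2 PBS libraries of LASCPC-01 cells was sequenced as paired ends from a stranded kit, per the labels' protocols. Tools listed in the submitters' processing notes are fastp, HISAT2 and HTSeq, with build GRCh38; versions, annotation, gene lengths, scaling total and strand setting are not stated there. The deposited table holds the FPKM values that the authors computed. Columns name the group and a letter, and the ketotifen columns also hold a digit that the labels do not explain. Letters were not tied to the numbered replicates in the labels. Separate cultures are not stated, so p-values reflect library-to-library spread that could be purely technical.

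Since FPKM are not counts, log2(FPKM + 1) values were fitted in limma 3.58.1 under R 4.3.3, with its trend option, for the 10586 genes averaging 1 FPKM or more; the test was two-sided, with Benjamini-Hochberg adjustment over all tested genes and a threshold of 0.05. Such fold changes understate those of low genes. The values are steps of whole reads, and a search for whole-number ratios (Python 3.11.15) recovered reads for 99.6% of tested genes, up to a common factor per gene, accepted within 0.05 reads; of 500 decoy genes 0 were recovered. The smallest numbers that fit were kept, so the true reads of a gene may be a whole multiple of them. Voom was run on these smallest numbers. Both fits were tested on simulated data. Positions and overlaps come from GENCODE 29 (GRCh38).

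Members, gene lists and named-gene rule (the members, up to 4 tested genes of smallest p in each list, and the 5 nearest profiles of each called member) were chosen with earlier results of these data known. Other genes complete small families, neighbour FUT11, were called by voom, or were chosen after their values were seen, such as KDM3A, EGLN1, EGLN3 and the EMI domain genes. Alternatives were other pseudocounts (0.1 and 5), filters (none and 5 FPKM), scalings, no trend, voom, each library left out and, added after the data were seen, a block on the column letter.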

Additional observations from a re-analysis of the deposited data

How the results depend on the processing

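FUT11 kept its direction under all 14 alternatives, with log2 changes from -0.52 to -0.37; its call was lost with no filter (-0.47), under median ratio scaling (-0.46) and quantile normalization (-0.46) and without the intensity trend (-0.47), where 0 members were called. With each library left out the change ranged from -0.50 to -0.45 and the count of members called from 0 to 1; it was 0 without ketotifen library A or B. These fits assume that the lone library of a group varies like the others, and their direction was fixed by groups that do not overlap. The number of genes called, 13 as reported (1 higher, 12 lower), was 0 with no filter, where 2260 had an unadjusted p under 0.05, and 27 (15 higher, 12 lower) with a mean of at least 5 FPKM. It was 3 (1 and 2) under median ratio scaling as under quantile normalization, 4 without the trend, and 734 (359 and 375) with voom. Leaving out 1 library gave 10 to 1936, with 1936 without PBS library A, 421 without PBS library B, 28 without ketotifen library A and 10 without ketotifen library B. Rescaling to an equal sum turned the sign of FUT8 (-0.0214) and POFUT2 (-0.00201), and quantile normalization that of FUT10 (0.0309). With single libraries left out, FUT8 ranged from -0.0513 to 0.0828, POFUT2 from -0.0309 to 0.106 and FUT10 from -0.0562 to 0.0112, none of them called. FUT1, GMDS, POFUT1 and SLC35C1 kept their sign and stayed uncalled under each alternative that tested them. The causes were not tested. A replicate block on the column letter, chosen after seeing the data, gave 637 genes called (406 higher, 231 lower) and 1 member, FUT11 (-0.47, limma adjusted p = 0.00574). The letters are not tied to the replicate numbers of the labels, and deviations of same-letter libraries from their group means correlated at r = 0.102 across genes, so the libraries may share only a letter. FUT2 and FUT4 had 9 to 83 recovered reads per library, at the smallest numbers that fit. They were tested only with no filter, where 0 of the 10 members were called.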
